A study of Mus musculus with 20 samples.

Results

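The 10 genes described here are 3 receptors (Notch1, Notch2, Notch3), 4 ligands (Jag1, Jag2, Dll1, Dll4) and 3 target genes (Hes1, Hey1, Heyl) of the Notch pathway, taken by symbol from the 51789 genes of a deposited expression table. All 10 were found, and 9 of them passed the filter for testing (at least 1 FPKM in 5 or more libraries). RNA came from the intervertebral disc of 24-month-old BL6 mice, from its gelatinous core of notochordal origin, the nucleus pulposus (NP), and from the fibrous ring that encloses the core, the annulus fibrosus (AF). The mice received intraperitoneal injections from 18 months of age over 6 months, either of DMSO alone (vehicle) or of MDL-800 with DMSO as its solvent, so every group received DMSO. MDL-800 activates SIRT6, an enzyme that removes acyl groups from histones. Each tissue was sampled under each treatment, which makes 4 groups of 5 libraries (NP vehicle, AF vehicle, NP MDL-800, AF MDL-800), and a library is called by its group followed by its title number. The labels give microdissected tissue and do not say whether a library is 1 disc, 1 mouse or a pool, so p-values measure the spread between these libraries. Which NP and AF libraries come from the same mouse is not stated either, so the main tissue tests are unpaired. The question the design poses is how old NP and AF differ in Notch genes and whether long-term MDL-800 changes them.

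Notch receptors are membrane proteins activated by Jagged and Delta-like ligands on neighbouring cells. Ligand binding exposes a site for ADAM proteases, after which gamma-secretase releases the intracellular domain, which joins the DNA-binding protein RBPJ and Mastermind-like coactivators to switch on HES and HEY repressor genes. In blood vessels DLL4, JAG1 and NOTCH1 pattern endothelium, and NOTCH3 is the receptor of smooth muscle and pericytes. In the skeleton the pathway is best known for segmenting the somites and for holding back differentiation of chondrocyte and bone precursors.

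Levels are given as scaled FPKM (FPKM, fragment numbers divided by transcript length and library size, here also divided by a factor per library between 0.930 and 1.06), which is a scale per length, so genes can be set side by side. Differences are log2 fold changes of scaled FPKM + 1, which understate the change of genes near or below 1 FPKM. Estimated depth was 12.7 M to 22 M fragments per library (M, mega), with group means of 18.4 M to 19.9 M. The tissue labels were checked against markers. The NP markers T (brachyury) and Krt19 had means of 1404 and 1123 scaled FPKM in NP vehicle against 305 and 287 in AF vehicle. Of the 9 NP markers that passed the filter, 8 were called higher in NP vehicle and 1, Car12, lower (limma, adjusted p under 0.05). The AF markers Col1a1 and Tnmd had means of 36.3 and 1.11 in NP vehicle against 746 and 48.4 in AF vehicle. Some AF libraries carried more NP marker RNA than others: the summed level of the 10 NP markers was between 986 and 4193 in AF vehicle and between 1066 and 2996 in AF MDL-800, against 6642 to 9905 in the NP libraries. NP vehicle 3 carried more skeletal muscle marker RNA, with a summed level of 1062 compared with 10.3 to 228 in the other NP libraries.

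The promoters of the receptors are shown because Notch1, Notch2 and Notch3 had different tissue patterns in these libraries. The promoter of Hey2, a target gene on the wider pathway list, is shown because it carries the core letters bound by RBPJ. Each sequence is the 250 bases before the RefSeq transcription start, on the gene's strand, in build GRCm38.p6. Notch1 is at chr2:26503823-26504072 (minus strand), Notch2 at chr3:98013288-98013537 (plus strand), Notch3 at chr17:32166891-32167140 (minus strand) and Hey2 at chr10:30842784-30843033 (minus strand). The Notch1 window lies inside the GENCODE gene span given for Notch1 below, whose minus-strand start is at 26516663, so it precedes a different start. Capitals mark the GC box GGGCGG on either strand in the receptors, and the core TGGGAA on either strand in Hey2.
Notch1: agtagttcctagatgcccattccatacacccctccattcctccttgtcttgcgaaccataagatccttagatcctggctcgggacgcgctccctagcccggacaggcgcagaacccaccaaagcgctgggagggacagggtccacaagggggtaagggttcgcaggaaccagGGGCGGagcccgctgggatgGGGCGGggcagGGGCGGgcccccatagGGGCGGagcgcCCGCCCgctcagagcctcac
Notch2: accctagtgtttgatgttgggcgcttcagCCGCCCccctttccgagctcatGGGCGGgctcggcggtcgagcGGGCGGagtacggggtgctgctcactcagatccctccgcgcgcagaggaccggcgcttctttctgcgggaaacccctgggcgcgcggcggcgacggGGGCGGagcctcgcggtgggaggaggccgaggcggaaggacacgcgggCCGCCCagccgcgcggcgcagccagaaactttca
Notch3: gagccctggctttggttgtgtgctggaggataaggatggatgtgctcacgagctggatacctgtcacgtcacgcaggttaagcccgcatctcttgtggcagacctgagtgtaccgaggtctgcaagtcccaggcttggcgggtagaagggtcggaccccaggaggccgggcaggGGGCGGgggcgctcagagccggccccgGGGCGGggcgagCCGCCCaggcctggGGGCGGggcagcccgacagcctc
Hey2: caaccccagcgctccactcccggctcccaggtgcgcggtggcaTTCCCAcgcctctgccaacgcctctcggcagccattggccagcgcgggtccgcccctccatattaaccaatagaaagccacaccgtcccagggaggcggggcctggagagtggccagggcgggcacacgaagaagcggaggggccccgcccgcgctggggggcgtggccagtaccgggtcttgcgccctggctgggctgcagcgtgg
The Notch1 window holds 5 GC boxes, all within 78 bases of its RefSeq start, the Notch2 window 5 and the Notch3 window 4. The promoter table matched 7 of the 10 members in 8 windows (Notch1, Notch2, Notch3, Jag1, Jag2, Dll4, and Dll1 with 2 starts). Of these 8 windows 5 held GGGCGG, compared with 32.7% of 32851 windows over all genes, counted on both strands with overlaps allowed. TGGGAA was in 0 of the 8 windows, compared with 21.6% of all windows. These 8 windows belong to receptors and ligands, since the promoter table held no entry for the targets Hes1, Hey1 and Heyl. Their GC content was between 56% and 87.2%, and the median over all windows was 52.4%. Among HES and HEY family genes and Nrarp of the pathway list, 3 of 6 windows held TGGGAA and 4 of 6 held GGGCGG, so the GC box is not particular to the receptors and ligands. The windows with TGGGAA are those of Hes5, Hes7 and Hey2, of which only Hey2 passed the filter for testing. In Hey2 TGGGAA begins at position -207 relative to the transcription start. The Hey2 window also holds 3 GGGCGG on either strand, left in lower case above. These are matches of letters only.

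Among the receptors, Notch2 was the most abundant and Notch1 came next in every group except NP MDL-800, where their order was turned, while Notch3 was close to absent from the NP. Notch1 (ENSMUSG00000026923, GRCm38 chr2:26457903-26516663, minus strand) had scaled FPKM of 5.69, 6.84, 8.08, 7.46 and 8.05 in NP vehicle, and of 10.8, 14.6, 9.39, 11.4 and 11.8 in NP MDL-800. In AF vehicle it was at 10.4, 7.43, 5.68, 4.24 and 9.28, and in AF MDL-800 at 7.28, 3.24, 9.85, 8.83 and 10.1. All 5 NP MDL-800 libraries were above all 5 NP vehicle libraries, and both AF groups spanned the range of NP vehicle. Notch2 (chr3:98013527-98150361, plus strand) was at 7.26, 6.40, 9.49, 8.23 and 10.4 in NP vehicle and at 9.13, 12.4, 6.87, 9.50 and 9.69 in NP MDL-800. Its levels in the AF were 35.5, 19.2, 28.4, 23.4 and 39.0 with vehicle and 23.8, 25.1, 38.2, 29.4 and 27.8 with MDL-800. No NP library reached the lowest AF library for Notch2, and the treatments overlapped in both tissues.

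Notch3 (chr17:32120820-32166852, minus strand) ranged in NP from 0.0414 to 0.223 with vehicle and from 0.0425 to 0.222 under MDL-800. In the AF it was at 3.99, 1.63, 2.68, 2.07 and 5.33 with vehicle and at 2.54, 3.40, 4.30, 6.35 and 2.80 with MDL-800. The NP levels of Notch3 rest on an estimated 6.42 to 34.6 fragments per library. The ratio of Notch1 to Notch2 within a library sums up the receptor pattern: its geometric mean was 0.871 in NP vehicle (0.773 to 1.07 over 5 libraries), 1.23 in NP MDL-800 (1.18 to 1.37), 0.250 in AF vehicle (0.181 to 0.387) and 0.257 in AF MDL-800 (0.129 to 0.363). Every NP library thus had a higher Notch1 to Notch2 ratio than every AF library, and every NP MDL-800 library a higher one than every NP vehicle library. The ratio restates the Notch1 and Notch2 levels given above, and the share of gene pairs that separate in this way was not computed. Of single genes tested, 25.9% were lower in NP vehicle than in AF vehicle without overlap, and 4.50% did not overlap between the NP groups. Notch4, the remaining mammalian receptor, was lower than Notch1 in every library, with means in NP of 0.581 (vehicle) and 1.02 (MDL-800) and in AF of 1.12 (vehicle) and 1.26 (MDL-800). Notch1, Notch3 and some ligand genes overlap annotated genes on the opposite strand, and how the counting used strand is not given in the sources used here, so reads of such pairs cannot be told apart.

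The ligands were scarcer than Notch1 and Notch2 in all groups, with Jag1 the highest of them in mean. Jag1 (chr2:137081456-137116644, minus strand) was at 0.334, 0.528, 1.17, 1.35 and 0.932 in NP vehicle, and at 1.19, 1.67, 0.739, 0.393 and 0.413 in NP MDL-800. In AF vehicle it was at 5.60, 2.17, 4.52, 4.76 and 6.69, and in AF MDL-800 at 3.09, 5.53, 6.00, 5.65 and 3.30. The lowest AF library, AF vehicle 9, was still above all 10 NP libraries. Dll4 (chr2:119325784-119335962, plus strand), the ligand of sprouting endothelium, ranged in NP from 0.0414 to 0.213 with vehicle and from 0.0899 to 0.334 under MDL-800. Its AF levels were 2.00, 0.698, 1.17, 0.678 and 2.24 with vehicle and 1.15, 1.19, 1.66, 1.96 and 1.13 with MDL-800. Jag2 (chr12:112907819-112929776, minus strand) ranged with vehicle from 0.114 to 0.751 in NP and from 0.777 to 1.65 in AF, and under MDL-800 from 0.190 to 0.891 in NP and from 0.540 to 1.89 in AF. Its NP and AF ranges lay next to each other with vehicle and crossed under MDL-800.

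Dll1 (chr17:15367354-15376872, minus strand), the Delta-like ligand of somite formation, reached 1 FPKM in 4 AF libraries only and did not pass the filter. It was listed at 0 in 2 of 5 NP vehicle libraries, with a highest NP value of 0.396, and was between 0.465 and 2.05 in AF vehicle and between 0.663 and 2.81 in AF MDL-800. Every AF library was above every NP library for Dll1 as well.

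The targets fell into an abundant gene, Hes1, and a scarce pair, Hey1 and Heyl. Hes1 (chr16:30064384-30067796, plus strand), the HES repressor found in most tissues, was at 6.49, 16.7, 18.7, 10.6 and 12.4 in NP vehicle and at 17.1, 24.8, 17.2, 17.4 and 14.4 in NP MDL-800. In AF vehicle it was at 15.4, 14.3, 22.7, 11.3 and 15.6, and in AF MDL-800 at 16.1, 27.1, 17.7, 21.3 and 11.3. All 4 groups overlapped for Hes1. Hey1 (chr3:8663359-8667256, minus strand), a HEY repressor induced by Notch in endothelium and bone precursors, ranged with vehicle from 0.0968 to 0.447 in NP and from 0.920 to 2.42 in AF, and under MDL-800 from 0.213 to 0.581 in NP and from 1.49 to 3.35 in AF. Heyl (chr4:123233556-123249875, plus strand), a HEY family member known from vascular smooth muscle, ranged with vehicle from 0.0753 to 0.673 in NP and from 0.862 to 3.39 in AF, and under MDL-800 from 0.0531 to 0.460 in NP and from 1.23 to 2.62 in AF. For both HEY genes the NP and AF ranges were apart. The ratio of Hes1 to Hey1 was accordingly between 28.2 and 81 in the NP libraries and between 6.35 and 15.5 in the AF libraries.

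**Figure D1:**
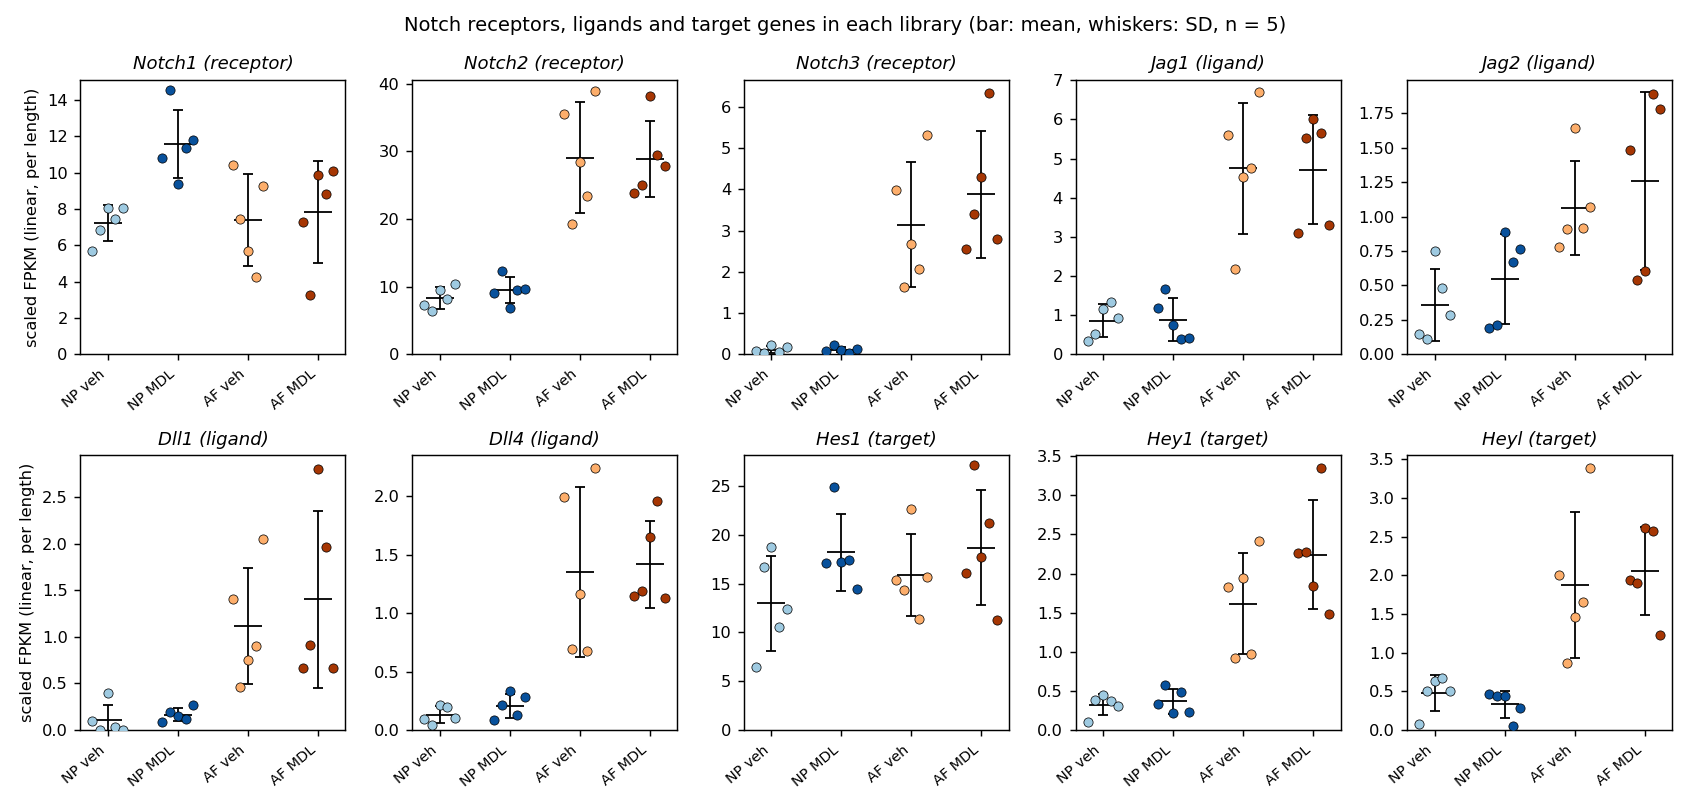
Scaled FPKM (linear axis from 0, per transcript length) of the 10 members in each library, by group; points are libraries, the horizontal bar is the mean and the whiskers the SD of 5 libraries. Notch1 stands at 9.39 or more in all 5 NP MDL-800 libraries and at 8.08 or less in NP vehicle, and Notch2, Notch3, Jag1, Dll1, Dll4, Hey1 and Heyl are higher in every AF library than in every NP library.

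Ordered by mean level, NP vehicle ran from Hes1 (13.0 ± 4.87, SD, n = 5) through Notch2 (8.36 ± 1.63) to Notch1 (7.23 ± 0.996), whose ranges overlapped, and then dropped to Jag1 (0.861 ± 0.425), Heyl (0.478 ± 0.237) and the rest. In NP MDL-800 the order was Hes1 (18.2 ± 3.91), Notch1 (11.6 ± 1.89), Notch2 (9.51 ± 1.95) and then Jag1 (0.881 ± 0.546). In AF vehicle Notch2 led (29.1 ± 8.19), followed by Hes1 (15.9 ± 4.16), Notch1 (7.41 ± 2.54), Jag1 (4.75 ± 1.67) and Notch3 (3.14 ± 1.51). AF MDL-800 had that same order, with 28.9 ± 5.66 for Notch2, 18.7 ± 5.90 for Hes1, 7.86 ± 2.81 for Notch1, 4.71 ± 1.40 for Jag1 and 3.88 ± 1.54 for Notch3. Notch2 and Hes1 overlapped in both AF groups, Hes1 was above Notch1 without overlap, and below Notch1 neighbouring genes overlapped.

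Between the tissues, the receptors Notch2 and Notch3, the ligands Jag1, Jag2 and Dll4 and the targets Hey1 and Heyl were lower in NP than in AF of vehicle mice, whereas Notch1 and Hes1 did not differ beyond their spread. The mean of Notch2 was 3.48-fold higher in AF vehicle than in NP vehicle, that of Notch3 27.6-fold, Jag1 5.51-fold, Jag2 2.97-fold, Dll4 10.4-fold, Hey1 5.02-fold and Heyl 3.92-fold. With limma and adjustment over all 16383 genes, the log2 fold change of NP against AF was -1.66 for Notch2 (SE 0.20, adjusted p = 6.01e-05), -1.82 for Notch3 (SE 0.22, adjusted p = 6.95e-05) and -1.60 for Jag1 (SE 0.25, adjusted p = 2.88e-04). It was -1.01 for Dll4 (SE 0.20, adjusted p = 0.00136), -0.95 for Hey1 (SE 0.18, adjusted p = 0.00106), -0.92 for Heyl (SE 0.22, adjusted p = 0.00449) and -0.61 for Jag2 (SE 0.16, adjusted p = 0.00833). In these 7 genes every NP library was below every AF library. Among all genes tested, 33.9% were called lower in NP in this comparison, and 25.9% were lower without overlap between the groups. Since bulk RNA was measured, fewer cells of a type and less RNA per cell cannot be told apart.

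The filter bears on these calls. Notch1, Notch2 and Hes1 reached 1 FPKM in all 20 libraries, but Notch3, Jag2, Dll4, Hey1 and Heyl did so in 0 of 10 NP libraries and Jag1 in 4, so these 6 passed through the AF, where they are high, and a difference had to appear. Their number is therefore not a result about the members. Dll1 was fitted only where no filter was applied, at -0.90 (SE 0.20, limma adjusted p = 0.00682 over the larger set of genes). Notch1 differed by 0.01 (95% confidence interval -0.44 to 0.47, limma adjusted p = 0.958) and Hes1 by -0.32 (-0.89 to 0.25, limma adjusted p = 0.323). For Notch1 the sign was -0.04 on the FPKM as deposited. Forcing all libraries to 1 distribution (quantile normalization) moved the median log2 fold change of all genes from -0.08 to 0.20, and the calls from 3577 higher and 5550 lower to 6474 higher and 3923 lower. Under it Notch2 (-1.43), Notch3 (-1.29) and Jag1 (-1.09) stayed past the threshold, while Jag2 (-0.05, limma adjusted p = 0.800), Dll4 (-0.44, 0.0910), Hey1 (-0.39, 0.0909) and Heyl (-0.39, 0.146) did not. Without NP vehicle 1 and 2 together, Jag2 also missed it (-0.45, limma adjusted p = 0.0636).

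The same tissue comparison in MDL-800 mice, which uses other libraries, gave lower NP levels for Notch2, Notch3, Jag1, Dll4, Hey1 and Heyl, the 6 genes that were also lower with vehicle. The log2 fold changes were -1.51 for Notch2 (SE 0.16, limma adjusted p = 1.63e-05), -2.08 for Notch3 (SE 0.19, 6.20e-06), -1.61 for Jag1 (SE 0.23, 1.28e-04), -0.99 for Dll4 (SE 0.13, 6.35e-05), -1.23 for Hey1 (SE 0.16, 6.26e-05) and -1.18 for Heyl (SE 0.16, 8.51e-05). Each of them was lower in all 5 NP libraries than in any AF library, and over all genes 37.2% were called lower in NP here and 30.5% were lower without overlap. The filter used all 20 libraries, so Notch3, Jag1, Dll4, Hey1 and Heyl again entered through the AF, where they are high. Their calls here are therefore no separate result about the members. Jag2 missed the threshold at -0.52 (SE 0.22, limma adjusted p = 0.0632), and Hes1 was level at -0.01 (SE 0.21, 0.984). Dll1, fitted without the filter, was at -0.96 (SE 0.23, limma adjusted p = 0.00988). Notch1, in contrast, had a positive estimate of 0.57 (95% confidence interval 0.03 to 1.12, limma adjusted p = 0.0639), with a mean of 11.6 in NP and 7.86 in AF. Its ranges overlapped, since 2 AF MDL-800 libraries exceeded the lowest NP MDL-800 library. The call for Notch1 turned on the processing: its adjusted p was between 0.00909 and 0.159 over the alternatives, and it was called higher in NP with upper-quartile scaling, quantile normalization, removal of the GC trend, a joint fit of all groups, and without AF MDL-800 library 30. Quantile normalization here turned 4188 higher and 6102 lower calls over all genes into 6919 and 4290.

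**Figure D2:**
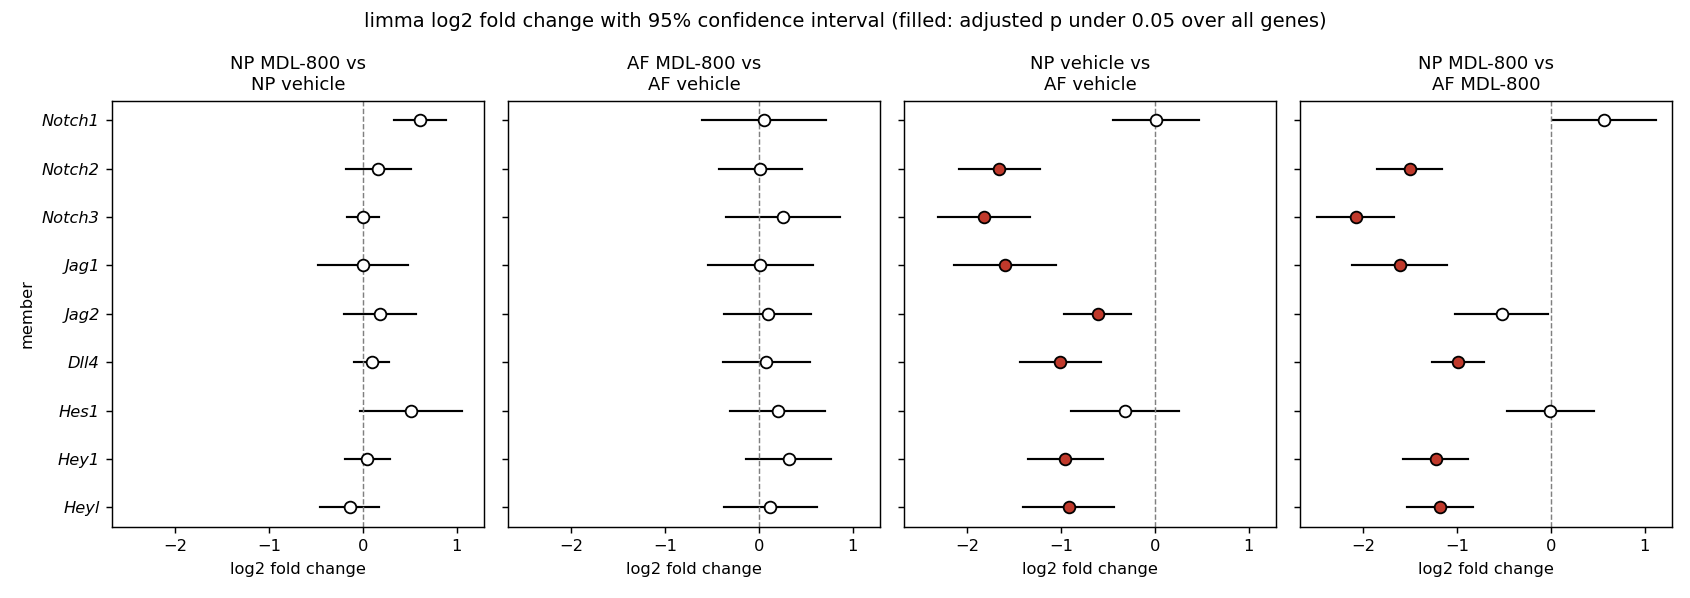
Log2 fold change (log2 of scaled FPKM + 1) of the 9 tested members in 4 comparisons, each with its 95% confidence interval from limma; filled points have an adjusted p under 0.05 over all genes tested. In both tissue comparisons Notch2, Notch3, Jag1, Dll4, Hey1 and Heyl lie left of 0, and in the treatment comparisons Notch1 in NP (0.61) is farthest from 0 on this scale. The scale understates changes of scarce genes: the ratio of NP means, MDL-800 over vehicle, was 1.60 for Notch1 and 1.61 for the scarce Dll4.

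Vessel markers differed between the tissues along with these members. The summed level of 12 endothelial markers ranged with vehicle from 19.4 to 35.7 scaled FPKM in NP and from 83.6 to 190.3 in AF, and under MDL-800 from 23.1 to 33.8 in NP and from 110.1 to 173 in AF. In the vehicle comparison 11 of the 12 were called lower in NP by limma, and Flt1 was called higher. Pecam1, a junction protein of endothelium, had means of 1.63 in NP vehicle and 25.8 in AF vehicle, and Cdh5 (VE-cadherin) of 0.350 and 13.2, so the defining endothelial markers were low but not at 0 in the NP. Of 11 mural markers 5 were called lower in NP and 3 higher. The pericyte marker Rgs5 had means of 0.869 in NP vehicle and 35.3 in AF vehicle, whereas the contractile actin Acta2 had means of 665 and 169. Markers of skeletal muscle (7 of 7), red blood cells (6 of 6), bone (6 of 6) and macrophages (6 of 6) were called lower in NP too, as were 9 of 10 AF markers. The part of these cells in the tissue difference of the Notch genes was not tested.

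Within the AF, the libraries with more endothelial RNA had more Notch3 and Dll4. Over the 10 AF libraries, the mean log2 level of the 12 endothelial markers correlated with Dll4 at Pearson's r = 0.908 and Spearman's rho = 0.867 (permutation test with 100000 resamples, adjusted p = 0.0173 for r and 0.0235 for rho over 36 relations). For Notch3 r was 0.863 and rho 0.939 (adjusted p = 0.0236 and 0.0036, same permutation test). Without AF vehicle 12 and 13, the libraries farthest from the median of the markers, r was 0.849 for Dll4 and 0.862 for Notch3. Notch2 had r = 0.797 and rho = 0.891 (adjusted p = 0.0531 and 0.0218), and Hes1 and Jag2 had r = 0.276 and -0.044. With the 11 mural markers, r in the AF was between -0.24 and 0.655, and none of the 9 relations passed. The mural list is not a measure of mural cells alone. Its marker Des was highest in AF MDL-800 29 (278.3), AF vehicle 12 (240.5) and, within the NP, NP vehicle 3 (47.3). Their summed skeletal muscle markers were 8480, 7798 and 1062, the highest of their tissue. The mural relations in both tissues therefore say little about pericytes or smooth muscle. In the NP, Notch3 had r = 0.793 and rho = 0.842 with endothelial markers (adjusted p = 0.0531 and 0.0324 by the permutation test), so rho passed and r did not. With mural markers r was 0.771 and rho 0.636 (adjusted p = 0.0531 and 0.240, same permutation test). Without the 2 farthest libraries r was 0.616 and 0.626. Points of a relation share the library, so its depth and its mix of cells enter both axes. Within the vehicle and MDL-800 groups of 5 libraries separate correlations were not computed. With the mean of each treatment group removed 3 relations, judged by r, with endothelial markers passed in the AF, and 1 with endothelial and 1 with mural markers in the NP.

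**Figure D3:**
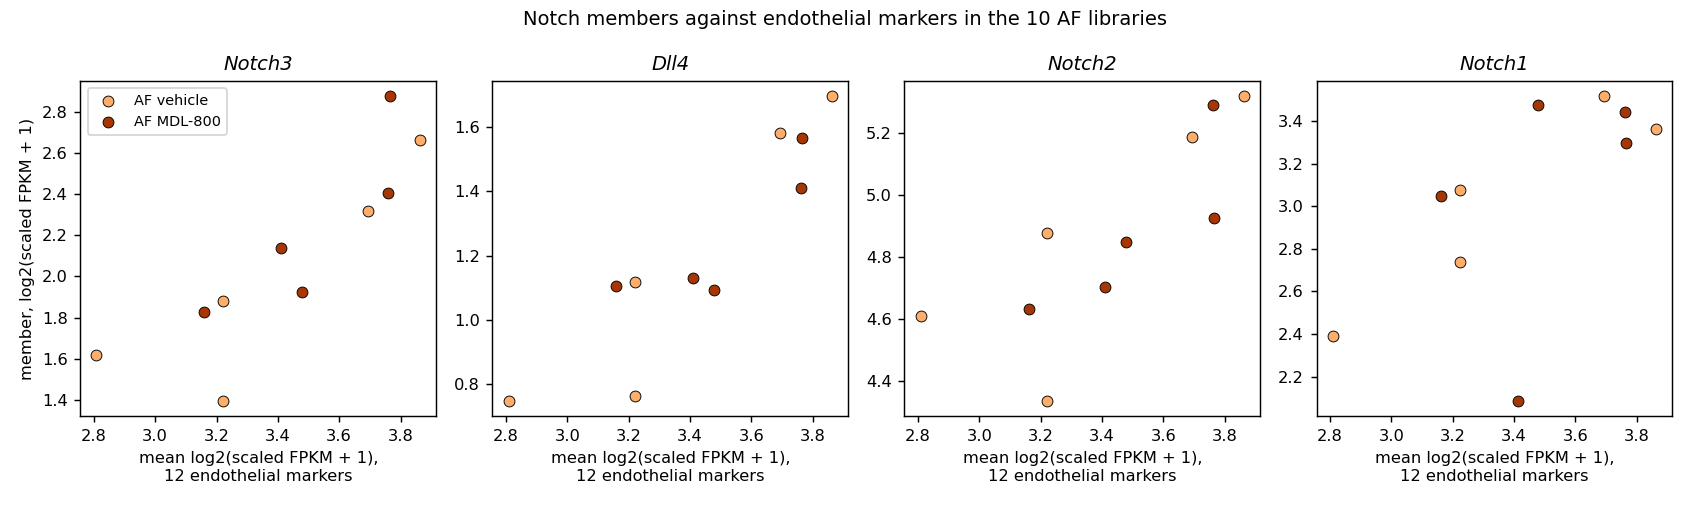
Log2(scaled FPKM + 1) of Notch3, Dll4, Notch2 and Notch1 in the 10 AF libraries, against the mean log2 level of 12 endothelial markers; points are libraries, coloured by treatment. Notch3 (r = 0.863) and Dll4 (r = 0.908) follow the markers, and Notch1 (r = 0.655, adjusted p = 0.171 by the permutation test) has AF MDL-800 library 27 as its lowest.

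In the AF several of the members that were lower in NP varied together from library to library, and Jag2 did not vary with them. Dll4 and Notch3 had Pearson's r = 0.933 over the 10 AF libraries, Notch2 and Dll4 0.878, Notch3 and Heyl 0.862 and Jag1 and Heyl 0.845, whereas r of Jag2 with the other 9 members was between -0.279 and 0.297. These are descriptions over libraries that share their tissue mix. Jag1 had r = -0.844 with the mean of the 9 tested NP markers in the AF (adjusted p = 0.0896 by the permutation test over 36 relations, computed after the data were seen), and AF vehicle 9 and AF MDL-800 25, which hold the most NP marker RNA, had the 2 lowest Jag1 levels of the AF.

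With MDL-800 in the NP, Notch1 was higher in all 5 treated libraries than in any vehicle library, and no member passed the threshold. The mean of Notch1 was 11.6 against 7.23, a ratio of 1.60, with a log2 fold change of 0.61 (SE 0.13, 95% confidence interval 0.33 to 0.89, limma adjusted p = 0.0743). Of all genes tested, 0.250% were called in this comparison, and 4.50% had groups that did not overlap (3.50% with treated libraries higher). Hes1, with a mean of 18.2 against 13.0, had a log2 fold change of 0.52 (SE 0.25, 95% confidence interval -0.03 to 1.06, limma adjusted p = 0.385), and its groups overlapped. NP vehicle library 1, with the lowest Hes1 level of 6.49, and NP MDL-800 library 18, with the highest of 24.8, set the extremes. With 1 library left out in turn, the estimate for Hes1 was between 0.31 (without NP vehicle library 1) and 0.66.

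The other receptors, ligands and targets stayed within the spread between NP libraries. The estimates were 0.16 for Notch2 (95% confidence interval -0.18 to 0.51), 0.18 for Jag2 (-0.20 to 0.56), 0.10 for Dll4 (-0.09 to 0.28), 0.05 for Hey1 (-0.19 to 0.29) and -0.14 for Heyl (-0.45 to 0.17). For Notch3 the interval was -0.17 to 0.17 and for Jag1 -0.48 to 0.48, around estimates near 0. Levels of Notch3, Dll4, Hey1 and Heyl in the NP rest on at most 58 estimated fragments a library, so small changes were not detectable at this depth.

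Some library properties moved with the treatment in the NP beside Notch1. The slope of log2 level on transcript GC content (per 10 percentage points) was between -0.22 and 0.063 in NP vehicle and between 0.092 and 0.158 in NP MDL-800, and the longest Notch1 transcript has 57.1% GC. NP vehicle 1 and 2, at -0.22 and -0.21, stood apart from the other vehicle libraries (0.020 to 0.063) and had the lowest Notch1 levels of their group. Without both, an alternative chosen after the data were seen, Notch1 was at 0.49 (SE 0.13, limma adjusted p = 0.228) and Hes1 at 0.38 (SE 0.21, 0.573). With that trend removed, Notch1 was at 0.46 (SE 0.11, limma adjusted p = 0.113). Of 9 tested NP markers, 3 (T, Krt8 and Krt19) were higher in every treated library than in any vehicle library, and 0 were called. T and Krt19 had means of 2000 and 1969 in NP MDL-800 against 1404 and 1123 in NP vehicle, while Cd24a (3342 and 3370) and Krt18 (177 and 178) were level, and 4 of the 9 estimates were below 0. With the NP markers as a covariate, an alternative chosen after the data were seen, Notch1 was at 0.84 (SE 0.12, adjusted p = 0.0805). With the endothelial markers as a covariate it was at 0.58 (SE 0.12, adjusted p = 0.102). Over all alternatives and left-out libraries, Notch1 in NP had a positive estimate of 0.46 to 0.84 and an adjusted p between 0.0561 and 0.318.

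In the AF, MDL-800 changed none of the members beyond the spread between libraries. The largest estimates were 0.32 for Hey1 (95% confidence interval -0.13 to 0.77), 0.26 for Notch3 (-0.35 to 0.87) and 0.20 for Hes1 (-0.30 to 0.71), each with an adjusted p of 1 in limma. Notch1 was at 0.05 (-0.61 to 0.71) and Notch2 at 0.01 (-0.43 to 0.46). Limma called 0 genes of 16383 here (0%), with 1.65% at an unadjusted p under 0.05, among them 0 of the 9 members. Notch1 spanned 3.24 to 10.1 within AF MDL-800 alone, and changes of the size of the Notch1 estimate in NP lie inside the AF interval. Notch1 was lowest in AF vehicle 12 (4.24) and AF MDL-800 27 (3.24) of their groups. These libraries also had the lowest slopes on GC content of their groups, -0.17 and -0.036. Whether the 2 are linked was not tested.

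Whether the treatment acted differently in the 2 tissues was tested directly in a fit of all 4 groups. For Notch1 the difference of the MDL-800 effect, NP minus AF, was 0.56 (SE 0.33, 95% confidence interval -0.14 to 1.26, limma adjusted p = 1.00). For Hes1 it was 0.31 (SE 0.35), for Hey1 -0.27 (SE 0.24), for Heyl -0.26 (SE 0.27) and for Notch3 -0.26 (SE 0.30). None of the 9 members was called, and neither was any of the 16383 genes (0%, with 3.72% at an unadjusted p under 0.05), so a treatment effect particular to a tissue was not shown for any Notch gene.

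The wider pathway was followed in 51 further genes grouped by role, of which 46 were tested. With vehicle, 8 were higher and 14 lower in NP than in AF (over all genes 21.8% and 33.9%), and the median of the list was -0.25 compared with -0.08 over all genes. Under MDL-800 16 were higher and 20 lower (over all genes 25.6% and 37.2%), with a median of -0.18 compared with -0.08. Quantile normalization gave 11 higher and 9 lower with vehicle, and 18 higher and 9 lower under MDL-800. The 14 genes lower with vehicle were all lower under MDL-800, where they made 70% of the 20, and 7 of the 8 that were higher with vehicle were higher again, 43.8% of the 16. The additional calls do not show that the tissues differ more under MDL-800, since the interaction called 0 pathway genes.

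Some genes that act on the receptor before it reaches the nucleus were lower in NP and some higher. Over all genes, 33.9% were called lower and 21.8% higher in NP with vehicle, and 37.2% and 25.6% under MDL-800. Of the 12 genes of endocytosis and turnover, 2 were lower and 2 higher with vehicle. The groups are small, and their counts are descriptions only. Adam10, the protease that makes the first ligand-dependent cut, had means of 22.4 ± 1.97 in NP vehicle and 46.7 ± 5.22 in AF vehicle (SD, n = 5), a log2 difference of -1.03 (SE 0.10, limma adjusted p = 2.00e-05). Mfng, a fringe enzyme that extends O-fucose sugars on Notch and shifts its preference between ligands, had means of 0.295 and 4.35 (-2.02, SE 0.20, limma adjusted p = 2.38e-05). Of the 6 genes grouped under glycosylation, 4 were lower and 1 higher in NP in either treatment. The remaining gene of that group, the protease Furin, was not called. Of the 4 lower ones Lfng, named after its values were seen, had means of 3.02 and 9.06 (-1.41, SE 0.31, limma adjusted p = 0.00261). Dtx4, a Deltex ubiquitin ligase that binds Notch, had means of 2.29 and 7.35 (-1.32, SE 0.17, limma adjusted p = 1.02e-04). The ligand-like protein Dlk1 had means of 0.0280 and 1.90 (-1.37, SE 0.27, limma adjusted p = 0.00154). Mfng, Dlk1 and Hey2 were scarce in NP and entered the test through the AF, like the scarce members. Gamma-secretase was mixed: 2 of 7 subunit genes were higher and 1 lower, with Aph1b at 12.7 and 7.92 (0.62, SE 0.12, limma adjusted p = 0.00159).

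Nuclear partners went both ways. Maml2, a Mastermind-like coactivator, was higher in NP, with means of 50.9 ± 10.9 in NP vehicle and 16.9 ± 3.47 in AF vehicle (1.54, SE 0.17, limma adjusted p = 4.50e-05), and no library of NP overlapped with the AF. Tle4, a Groucho-type co-repressor used by HES proteins, was higher as well (16.0 and 9.86, 0.64, SE 0.11, limma adjusted p = 5.27e-04). Kat2b, a histone acetyltransferase, was lower (14.7 and 28.6, -0.89, SE 0.17, limma adjusted p = 0.00119). Rbpj, the DNA-binding factor itself, had means of 36.1 ± 6.27 and 39.7 ± 8.51 and was not called in any comparison. Under MDL-800 the 8 smallest p-values belonged to Dtx4 (-1.49), Maml2 (1.47), Mfng (-2.16), Tle4 (0.63), Spen (0.65, a co-repressor of RBPJ), Dlk1 (-1.38), Hey2 (-0.93) and Adam10, with limma adjusted p between 1.83e-06 and 1.56e-04. Hey2, whose promoter is shown above, had means of 0.0800 in NP MDL-800 and 1.08 in AF MDL-800.

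**Figure D4:**
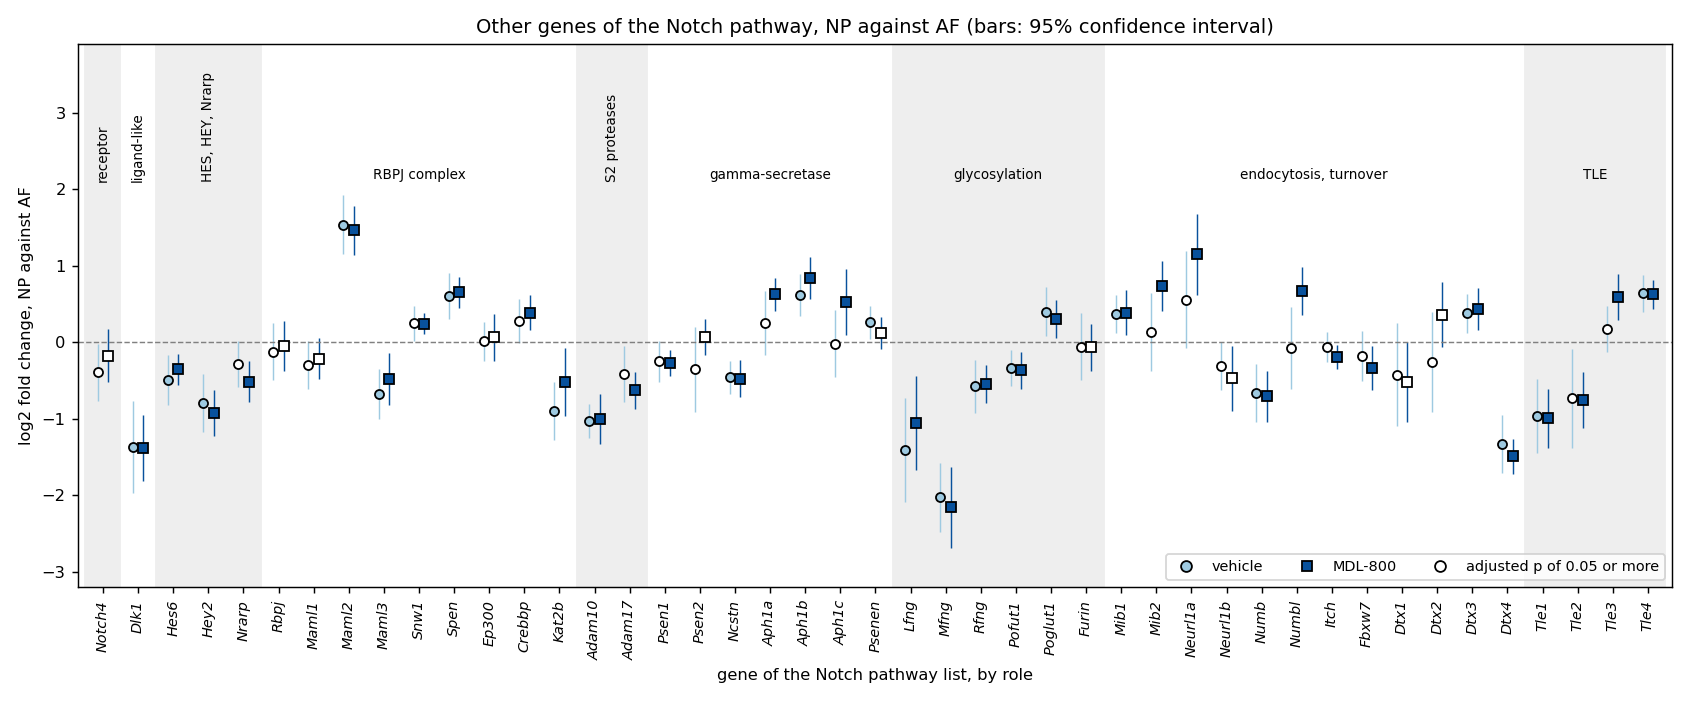
Log2 fold change of NP against AF (log2 of scaled FPKM + 1) for the tested genes of the wider pathway list except 1 that is not shown, by role, with vehicle (circles) and under MDL-800 (squares); bars are 95% confidence intervals from limma and open points have an adjusted p of 0.05 or more. Adam10, Mfng, Lfng, Dtx4, Dlk1 and Hey2 lie below 0 in both comparisons, and Maml2 (1.54 and 1.47) is the highest.

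Treatment called none of the 46 pathway genes in either tissue with limma. In the NP 6 had an unadjusted p under 0.05, all higher with MDL-800, compared with 9.11% of all genes in that direction. Among them were Notch4, the Groucho-type co-repressor Tle3, the turnover genes Numbl and Dtx2 and the ligand-activating ubiquitin ligase Mib2, named after their values were seen. Dtx2 had means of 8.33 and 4.26, Numbl of 10.9 and 6.36, Mib2 of 13.3 and 8.13, Tle3 of 44.8 and 31.3 and Notch4 of 1.02 and 0.581 in NP MDL-800 and NP vehicle. The slope on GC content given above differed between these groups as well. With that trend removed, limma again called 0 of the 46 in the NP, and the estimates of single genes under it are not given here. In the AF 0 of the 46 had an unadjusted p under 0.05.

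The genes whose level followed a member most closely were sought over all 20 libraries after the mean of each group was removed, for the receptor, ligand and target with the highest mean. Notch2 was followed by Maml1 (r = 0.954 within groups, 0.789 without removing group means), Ankrd52 (0.907 and 0.858) and Ndst1 (0.903 and 0.935). Jag1 was followed by Gm28875 (0.918 and 0.961), Runx1 (0.917 and 0.981) and Acap2 (0.917 and 0.986). Hes1 was followed by the immediate early gene Egr1 (0.827 and 0.720), the clock gene Cry2 (0.826 and 0.515) and Tmem248 (0.824 and 0.255). With group means removed, Maml1 was thus nearest to Notch2 among all genes tested, but with them left in Ndst1 and Ankrd52 were nearer than Maml1. The genes nearest to Hes1 kept a weaker likeness when group means were left in, whereas those nearest to Jag1 had a stronger one. These genes were picked for the highest r among all genes tested, so their r is high by selection. No test was run, and genes of a library share its mix of cells and its slope on GC content. A link between the genes is therefore not shown.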

How the data were processed

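RNA was measured in 20 libraries, 5 for each tissue and treatment. Per the labels' protocols, stranded total RNA libraries were made from 50 ng with removal of ribosomal RNA and 14 PCR cycles. Per the submitters' processing notes, STAR 2.7.11b and the build mm10 were used; the counting program, annotation, strand setting and treatment of reads matching several genes are not given in the sources used here. The authors deposited FPKM values rounded to 2 decimals, so no count test was used. Depth was estimated from low values of 6641 single-exon genes, of which 79.2% to 85.9% fell on whole fragments within 0.1 fragment.

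FPKM were divided by median-ratio factors from 11308 genes. The 16383 genes that reached 1 FPKM in 5 or more of the 20 libraries were tested on log2(scaled FPKM + 1) with limma 3.58.1 (lmFit, eBayes with trend) in R 4.3.3, two-sided, with Benjamini-Hochberg adjustment over all of them and calls at an adjusted p under 0.05. Each pair of groups was fitted alone, and the interaction in all 4 groups. The test was tried on simulated data. Correlations over the 10 libraries of a tissue used permutation tests in Python 3.11.15 with numpy 2.4.6. Alternatives were other scalings, filters, pseudocounts, covariates, a GC correction and leaving out libraries. Coordinates are from GENCODE M21 (GRCm38), which holds 51596 of the 51789 gene identifiers; promoters are from RefSeq.

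The pathway counts include 1 gene whose own values are not reported here. The members and lists were chosen with earlier results of these data known. Named are all members, up to 8 pathway genes per comparison past the threshold by smallest p, defining cell markers, and the 3 genes most like Notch2, Jag1 and Hes1.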

Additional observations from a re-analysis of the deposited data

Results flagged for a closer look

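In 3 of the 40 groups of 5 libraries (10 members in 4 groups), 1 library stood apart, its gap to the nearest other library taking more of the range than Dixon's critical value of 0.71. About 1 in 20 groups is flagged by chance.

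Dll1 in NP vehicle was highest in library 3, at 0.396 scaled FPKM, with the gap taking 0.756 of the range. That library also had the highest summed skeletal muscle markers of the NP (1062), and whether the 2 are linked was not tested. Heyl in NP vehicle was lowest in library 1, at 0.0753, with the gap taking 0.720 of the range. Hes1 in NP MDL-800 was highest in library 18, at 24.8, with the gap taking 0.716 of the range; that library also had the highest Notch1 and Notch2 levels of its group.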

How the results depend on the processing

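Notch1 in NP stayed short of the threshold under every alternative tried, with MDL-800 against vehicle, and no member was called in either treatment comparison or in the interaction. The 7 calls lower in NP with vehicle were 3 under quantile normalization and 3 with the filter at 10 libraries, where fewer members are tested. Under MDL-800 the 6 lower calls were 3 with that filter, and the 0 higher calls became 1 (Notch1) with upper-quartile scaling, quantile normalization, the GC trend removed and all 4 groups in 1 fit, and 0 to 1 with 1 library left out. Judged by r alone, the relations with vessel markers that passed in NP went from 0 to 1 for endothelial and for mural markers, with a pseudocount of 0.1 or treatment means removed. Otherwise the cause of these shifts was not tested.

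Signs turned only for estimates that passed no threshold. For MDL-800 in NP, Notch3 was at -0.0016 on FPKM as deposited, -0.0021 with upper-quartile scaling, -0.20 with the GC trend removed and -0.019 with the endothelial covariate. Jag1 was at 0.017 with quantile normalization, 0.0093 with the GC trend removed and 0.33 with the NP marker covariate. With the GC trend removed Jag2 was at -0.062, Dll4 at -0.032 and Hey1 at -0.016, and with the NP marker covariate Jag2 was at -0.051. In AF, Jag1 was at -0.0058 with quantile normalization and Notch2 at -0.0085 with the GC trend removed. With the endothelial covariate Notch1 was at -0.099, Notch2 at -0.11, Jag1 at -0.097 and Dll4 at -0.061, and with the NP marker covariate Notch1 was at -0.0087. Between tissues, Notch1 was at -0.042 with vehicle on FPKM as deposited. Under MDL-800 Hes1 was at 0.072 with upper-quartile scaling and 0.20 with quantile normalization, and Jag2 at 0.022 with the latter. In the interaction Jag1 was at 0.023 with quantile normalization, and Jag2 at -0.088 and Dll4 at -0.076 with the GC trend removed.

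With 1 library left out in turn, the estimates in NP ran from -0.033 to 0.036 for Notch3, -0.14 to 0.096 for Jag1 and -0.018 to 0.089 for Hey1. In AF they ran from -0.10 to 0.30 for Notch1, -0.12 to 0.13 for Notch2, -0.19 to 0.13 for Jag1, -0.0079 to 0.22 for Jag2, -0.029 to 0.21 for Dll4 and -0.020 to 0.29 for Heyl. Between tissues they ran from -0.14 to 0.14 for Notch1 with vehicle and -0.16 to 0.14 for Hes1 under MDL-800. In the interaction they ran from -0.15 to 0.19 for Jag1, -0.038 to 0.19 for Jag2 and -0.11 to 0.12 for Dll4. Jag2 under MDL-800 was called lower without AF MDL-800 library 27 (adjusted p = 0.0255) or 28 (0.0357), with the GC trend removed (0.035) and with all 4 groups in 1 fit (0.0291). Over all genes, the 41 calls for MDL-800 in NP ran from 2 to 189 with 1 library left out, and numbered 1 with the NP marker covariate. Without NP vehicle 1 and 2 together there were 11, Notch3 was at -0.046 and Hey1 at -0.016 in that comparison, and in the interaction Notch2 was at -0.012, Jag2 at -0.074 and Dll4 at -0.036.

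Some NP and AF libraries share a number in the column headers whose meaning is not stated. With vehicle the numbers 8, 9, 10, 12 and 13 each occur in both tissues. Deviations of same-numbered libraries correlated between -0.251 and 0.34. Such values cannot decide whether a number names a mouse, since the tissues differ in their cells. The main tests treated the libraries as unpaired. With the replicate block, added after the data were seen, 7 members were called lower with vehicle and 6 under MDL-800, as without it, and the interaction had 0. Under MDL-800 only the numbers 36, 37 and 39 occur in both tissues, and the blocked tissue comparison rests on those libraries. The block and the loss of libraries cannot be told apart there. Notch1 under MDL-800 was at 0.56 (adjusted p = 0.159). The pathway list had 11 higher and 11 lower under MDL-800 with the block. Depth is estimated, and the scarce members in NP rest on few fragments.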
